A study of Mus musculus with 9 samples.

Results

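The genes described here are scavenger and endocytic receptors of macrophages, some of which, such as Mrc1 and Cd163, are associated with alternative activation. These genes were followed across 3 stimulations of mouse bone marrow-derived macrophages. They were chosen by UniGene cluster number: ‘Mm.2019’ for Mrc1, ‘Mm.195516’ for Stab1, ‘Mm.37426’ for Cd163, ‘Mm.116997’ for Lyve1, ‘Mm.239291’ for Msr1 and ‘Mm.1856’ for Marco. Of these 6 clusters, 5 were found among the 17810 on the arrays. The number listed for Stab1 had no row in the table analysed here, so Stab1 is not described further. The deposited table carries numbers without gene symbols, so the symbols are those of the selection rule, with no second source among the tables used here.

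Bone marrow cells of C57BL/6 mice were cultured with 30 ng/ml of M-CSF, the growth factor that drives macrophage differentiation, and from day 4 they were stimulated for 3 days, 7 days of culture in all. In the combination (cmB16F1+dexa+IL4) the cells received medium that had been conditioned by the mouse melanoma line B16F1, together with the synthetic glucocorticoid dexamethasone (5e-07 M) and the cytokine IL-4 (10 ng/ml). The dexa+IL4 group received the same dexamethasone and IL-4 without conditioned medium. The cmB16F1 group received conditioned medium alone. Each group had 3 Affymetrix arrays, and no arrays of cells in plain medium were used here, so the effect of adding each stimulus to nothing, and additivity, could not be tested. Markers of macrophages or of other cell types could not be looked up, since their clusters carry no names, so the labelled cell type was not checked.

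These receptors clear material from the surroundings of the macrophage. Mrc1, the mannose receptor, is an endocytic lectin for glycoproteins with exposed mannose, and IL-4 is known to raise it in macrophages. Cd163 takes up complexes of haemoglobin and haptoglobin and is known as a glucocorticoid-induced gene of human monocytes. Lyve1 binds hyaluronan and is known from lymphatic endothelium and from some tissue and tumour macrophages. Msr1 and Marco are class A scavenger receptors with collagen-like stalks, which bind modified lipoproteins, bacteria and particles.

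The promoters of the receptors that differed most between the groups are shown first, because dexamethasone and IL-4 act on transcription through the glucocorticoid receptor and STAT6. Mrc1 and Cd163 had their highest means in the combination, and Marco, shown for contrast, in cmB16F1. The sequences are from RefSeq, build GRCm38.p6, and run 5′ to 3′ on the gene's strand over 300 bases, the last 50 of them from the annotated start onward. The table of promoters used here gave an entry for Mrc1, Cd163 and Marco and none for Lyve1 and Msr1. Capitals mark every match, on either strand, to the motifs named after the sequences.
Mrc1 chr2:14229164-14229463 (+ strand): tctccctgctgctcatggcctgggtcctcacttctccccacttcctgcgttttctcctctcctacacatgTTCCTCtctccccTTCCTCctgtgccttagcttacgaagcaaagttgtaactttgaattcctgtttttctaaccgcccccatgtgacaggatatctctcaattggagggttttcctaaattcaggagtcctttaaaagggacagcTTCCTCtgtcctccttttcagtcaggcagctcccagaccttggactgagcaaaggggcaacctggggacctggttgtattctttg
Cd163 chr6:124304401-124304700 (+ strand): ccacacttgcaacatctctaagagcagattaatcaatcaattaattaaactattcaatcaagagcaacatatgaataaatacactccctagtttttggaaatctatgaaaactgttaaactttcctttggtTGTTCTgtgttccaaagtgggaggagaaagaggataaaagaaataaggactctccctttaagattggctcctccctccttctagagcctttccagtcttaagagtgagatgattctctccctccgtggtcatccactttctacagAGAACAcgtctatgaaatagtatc
Marco chr1:120504975-120505274 (- strand): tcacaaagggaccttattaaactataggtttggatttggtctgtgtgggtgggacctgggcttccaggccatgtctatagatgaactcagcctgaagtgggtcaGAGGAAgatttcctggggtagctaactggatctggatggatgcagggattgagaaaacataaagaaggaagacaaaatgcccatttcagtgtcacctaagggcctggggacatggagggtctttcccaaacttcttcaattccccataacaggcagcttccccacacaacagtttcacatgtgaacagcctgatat
The letters searched were TTCNNNNGAA, the palindrome bound by STAT6, GNACANNNTGTNC, a palindromic glucocorticoid receptor element, AGAACA, a single arm of that element, and GAGGAA, a site of ETS factors such as the macrophage factor PU.1. None of the 3 windows held TTCNNNNGAA, which 6.95% of 32851 promoter windows of the same length hold, or GNACANNNTGTNC, which 0.475% hold. The Cd163 window held AGAACA 2 times, from base -119 relative to the start site on the opposite strand and from base 27 on the gene's strand. The Mrc1 and Marco windows held it 0 times, and 19.0% of all windows hold it. GAGGAA was found 3 times in the Mrc1 window, each time on the opposite strand, from bases -180, -167 and -35, once in the Marco window, from base -146 on the gene's strand, and not in that of Cd163, against 28.3% of all windows. No matches of different motifs overlapped. These are matches of letters in a short window, and neither binding nor more distant elements were measured.

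The values are on the log2 scale, where a difference of 1 is a 2-fold change, and levels are compared between groups for the same receptor, not between receptors. Bacterial poly-A control sets, which match no mouse transcript, ran up to 7.00 on these arrays, and this value serves as a guide to the low end of the scale. The highest value of any array was 14.2. In bulk RNA, fewer cells with a transcript and less of it per cell cannot be told apart.

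Cd163 was highest in the combination, lower in dexa+IL4 and lowest in cmB16F1. Its log2 values were 11.03, 10.64 and 10.96 in the combination, 9.43, 9.44 and 9.18 in dexa+IL4, and 7.41, 7.14 and 7.15 in cmB16F1. All 3 groups were separate, and the gaps between them were larger than the range within any of them. The mean was 10.88 ± 0.21 (SD, n = 3) in the combination, 9.35 ± 0.15 in dexa+IL4 and 7.23 ± 0.15 in cmB16F1.

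Mrc1 followed the same order. Its log2 values were 13.52, 13.30 and 13.19 in the combination, 12.76, 12.72 and 12.74 in dexa+IL4, and 12.08, 11.28 and 11.05 in cmB16F1. No array of 1 group overlapped with another group, but the cmB16F1 arrays were spread over 1.03, while those of dexa+IL4 lay within 0.048. The means were 13.34 ± 0.17 (SD, n = 3) in the combination, 12.74 ± 0.02 in dexa+IL4 and 11.47 ± 0.54 in cmB16F1. The combination lay toward 14.2, the highest value of any array, which is not a known limit of the scale. Its differences may be compressed, which was not tested.

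Lyve1 had another order, with both groups that received conditioned medium above dexa+IL4. Its log2 values were 7.99, 7.49 and 7.25 in the combination, 7.07, 7.11 and 6.96 in dexa+IL4, and 7.91, 7.34 and 7.15 in cmB16F1. The combination and cmB16F1 overlapped almost fully, and neither overlapped with dexa+IL4, where the lowest array lay under 7.00. The means were 7.58 ± 0.38 (SD, n = 3), 7.05 ± 0.08 and 7.47 ± 0.40 in the combination, dexa+IL4 and cmB16F1.

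Msr1 was lowest in the combination. Its log2 values were 9.11, 8.93 and 9.21 in the combination, 9.59, 9.60 and 9.54 in dexa+IL4, and 9.49, 9.36 and 9.51 in cmB16F1. Every combination array lay below the 6 others, and the dexa+IL4 arrays lay just above those of cmB16F1. The means were 9.08 ± 0.14 (SD, n = 3), 9.58 ± 0.03 and 9.45 ± 0.08 in the combination, dexa+IL4 and cmB16F1.

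Among the 3 groups, Marco lay above 7.00, the highest bacterial control of any array, only in cmB16F1. Its log2 values were 6.82, 6.97 and 6.94 in the combination, 6.96, 6.94 and 6.94 in dexa+IL4, and 7.31, 7.23 and 7.33 in cmB16F1. All 6 arrays of the combination and dexa+IL4 lay under that value, and all 3 of cmB16F1 above it. Set against the highest control of its own array, Marco lay at or below it on 2 of 3 arrays in the combination and 2 of 3 in dexa+IL4. The means were 6.91 ± 0.08 (SD, n = 3), 6.95 ± 0.01 and 7.29 ± 0.05 in the combination, dexa+IL4 and cmB16F1.

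**Figure D1:**
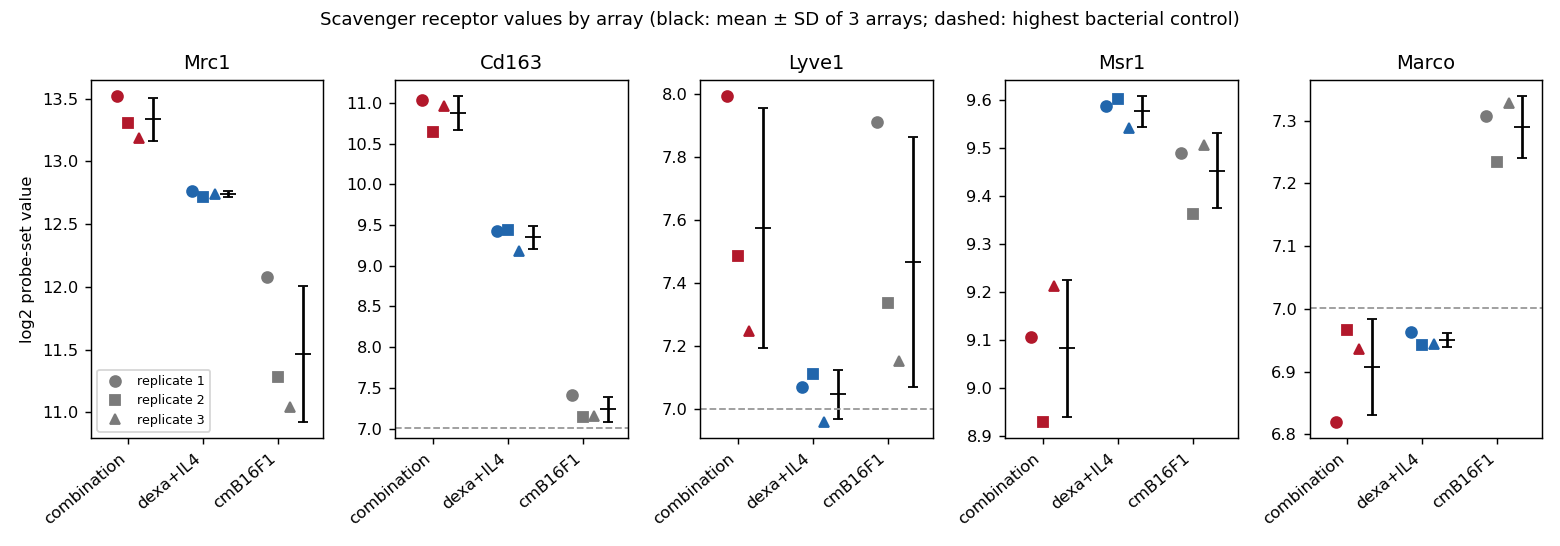
Log2 probe-set values of the 5 receptors on each array (symbols give the replicate number), with the mean and SD of 3 arrays per group in black and the highest bacterial control, 7.00, as a dashed line where it falls in the range. The vertical axis of each panel has its own scale and does not start at 0. Cd163 and Mrc1 step down across the 3 groups, Msr1 is lowest in the combination, and Marco is above the dashed line only in cmB16F1.

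The combination was first set against dexa+IL4, a comparison that varies the conditioned medium while dexamethasone and IL-4 are present on both sides. Cd163 rose 2.88-fold in the combination relative to dexa+IL4, and Msr1 fell 1.41-fold. Mrc1 was 1.51-fold and Lyve1 1.44-fold higher in the combination, and Marco differed by 0.04, but these 3 did not pass the test. Thus 2 of the 5 receptors were called, 1 in each direction, against 17.9% of all clusters called in either direction. That share includes dim clusters: only 60.5% of clusters had a 9-array mean above the highest bacterial control, as all 5 receptors did. With the dim ones left out 3314 clusters were called, a larger share of a smaller set. The median size of change, whatever its direction, was 0.53 over the 5 and 0.065 over all clusters, dim ones included.

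The Cd163 change was 1.53 on the log2 scale (SE 0.118, Benjamini-Hochberg adjusted p = 4.495e-05 in limma) and ranked as the 46th largest rise of 17810 clusters. The Msr1 change was -0.49 (SE 0.0756, limma adjusted p = 0.00170). The groups did not overlap in 4 of the 5 receptors, Marco being the exception, and in 36.1% of all clusters. For Mrc1 the change of 0.60 had a 95% confidence interval of 0.12 to 1.07 (limma adjusted p = 0.0835), and the single variance estimated for each gene from all 9 arrays includes the wide spread of Mrc1 in cmB16F1. With the 6 arrays of these groups alone Mrc1 passed (limma adjusted p = 0.00218), as it did without cmB16F1 replicate 1 (0.00209) or replicate 3 (0.0427). For Lyve1 the change of 0.53 had an interval of 0.07 to 0.99 (limma adjusted p = 0.111). It was 0.32 without combination replicate 1, and it passed without combination replicate 3, at 0.69 (limma adjusted p = 0.0472), and without cmB16F1 replicate 1 (0.0456). The Marco change of -0.04 had an interval of -0.14 to 0.05 (limma adjusted p = 0.574), between values that are not told apart from the bacterial controls.

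The combination was then set against cmB16F1, a comparison that varies dexamethasone and IL-4 while conditioned medium is present on both sides. Cd163 rose 12.5-fold and Mrc1 3.65-fold in the combination relative to cmB16F1. Msr1 fell 1.29-fold, and the Marco mean was at least 1.22-fold lower. Lyve1 was 1.08-fold higher and did not pass the test. In all, 4 of 5 receptors were called, 2 in each direction, against 14.1% of all clusters called in either direction. Dim clusters lower this share too: with them left out 2509 were called from the smaller set, against 2516 from all clusters. The median size of change was 0.38 over the 5 and 0.06 over all clusters, dim ones included.

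The Cd163 change, 3.64 on the log2 scale (SE 0.118, limma adjusted p = 6.218e-08), was the 8th largest rise of all clusters. Since cmB16F1, at 7.23, lay little above the bacterial controls, its fold may be too small. The Mrc1 change was 1.87 (SE 0.213, limma adjusted p = 2.358e-04), the 38th largest rise. The Msr1 change was -0.37 (SE 0.0756, limma adjusted p = 0.00856) and the measured Marco change -0.38 (SE 0.0434, limma adjusted p = 2.311e-04). The bound for Marco takes 7.00, the highest bacterial control of any array, in place of the combination values, all of which lay under it. That bound rests on the cmB16F1 mean and leaves out the spread of those arrays. For Lyve1 the change of 0.11 had a 95% confidence interval of -0.35 to 0.57 (limma adjusted p = 0.808), and it turned to -0.10 without combination replicate 1, to -0.05 without cmB16F1 replicate 3 and to -0.10 with scaling to the hybridization controls. The groups did not overlap in 4 of the 5 receptors, all but Lyve1, and in 28.5% of all clusters.

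**Figure D2:**
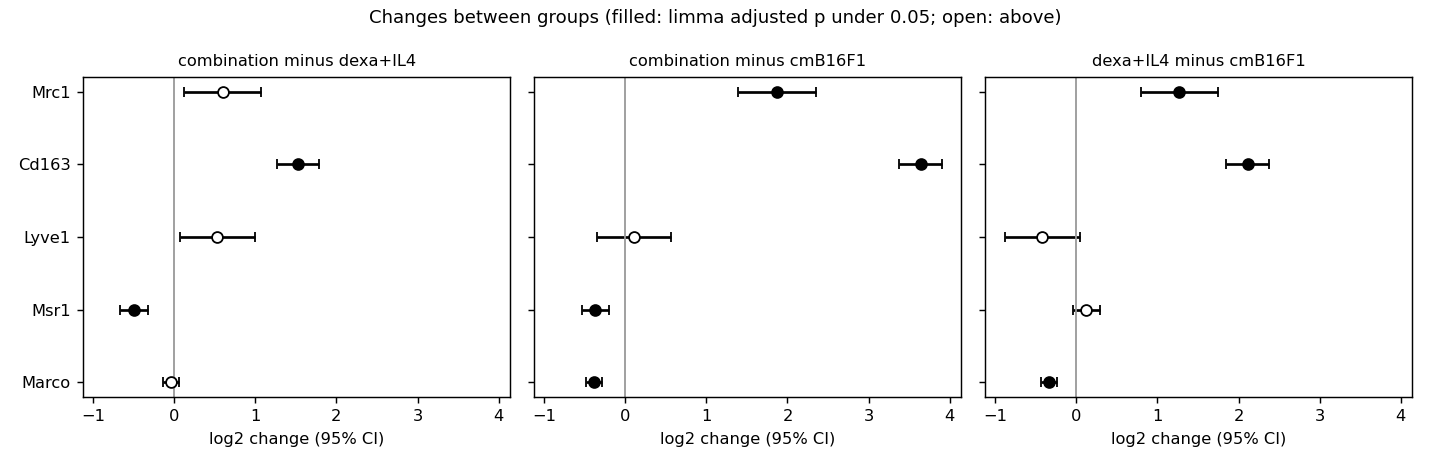
Log2 change of each receptor with its 95% confidence interval from the limma model, in the 3 comparisons. Filled points passed the adjusted threshold of 0.05 and open points did not. Cd163 is at 1.53, 3.64 and 2.11, and the Msr1 interval lies below 0 in both comparisons that involve the combination.

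Arrays with the same replicate number in the combination and cmB16F1 deviated together from their group means, so these groups were also compared pair by pair. The tests and the share of clusters given above for these groups left this pairing out. For Lyve1 the 3 pairs differed by 0.08, 0.15 and 0.10, always higher in the combination, although replicate 1 was highest in both groups. With the replicate number as a block and only these 6 arrays, an analysis chosen after seeing the data, Lyve1 still missed the threshold (limma adjusted p = 0.0823). For Mrc1 the pairs differed by 1.44, 2.03 and 2.14, and for Cd163 by 3.62, 3.49 and 3.81. Msr1 was lower in the combination by similar amounts in every pair, with differences of -0.38, -0.43 and -0.29. Marco also was lower in every pair, by amounts that are not sized because its combination values lay under the highest bacterial control.

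**Figure D3:**
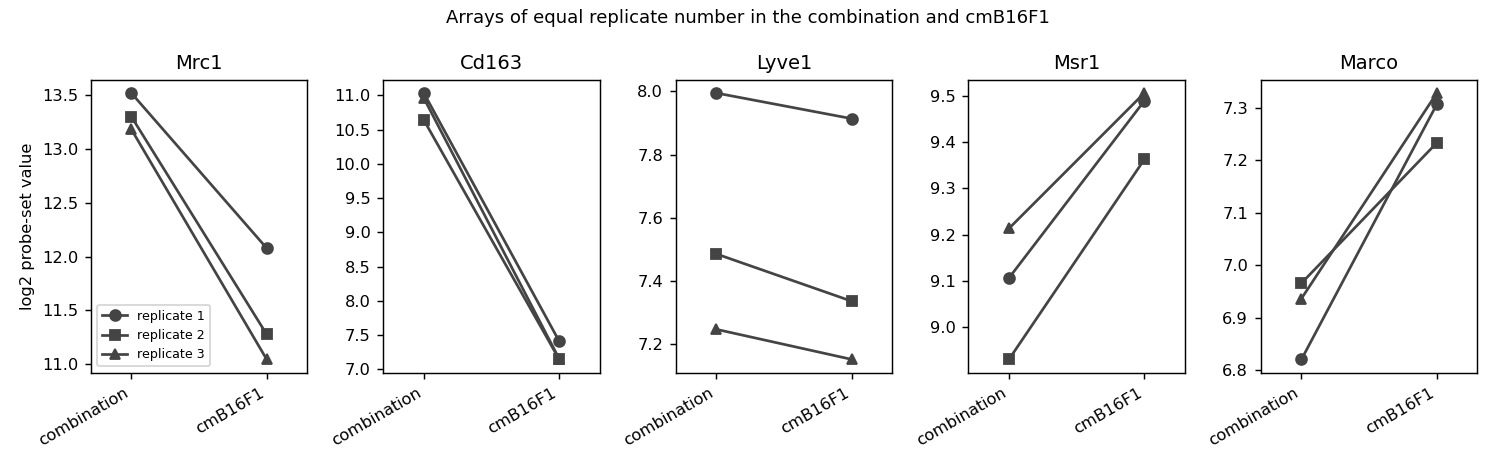
Log2 probe-set values of the combination (left of each panel) and cmB16F1 (right), with lines between arrays of equal replicate number. Each panel has its own vertical scale, which does not start at 0. The Lyve1 lines are nearly level and keep their order, with pair differences of 0.08, 0.15 and 0.10, while the Cd163 lines drop steeply.

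The third comparison set dexa+IL4 against cmB16F1, which differ in every agent. Cd163 was 4.33-fold and Mrc1 2.42-fold higher in dexa+IL4, and the Marco mean was at least 1.22-fold lower. Msr1, 1.09-fold higher, and Lyve1, 1.34-fold lower, did not pass the test. Thus 3 of the 5 receptors were called, 2 higher and 1 lower, against 25.0% of all clusters called in either direction. Here too dim clusters lower the share: with them left out 4263 were called from the smaller set, against 4454 from all clusters.

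The Cd163 change was 2.11 on the log2 scale (SE 0.118, limma adjusted p = 1.385e-06), the 22nd largest rise of all clusters, and its cmB16F1 values lay near the low end as given above. The Mrc1 change was 1.27 (SE 0.213, limma adjusted p = 0.00171), the 85th largest rise. The measured Marco change was -0.34 (SE 0.0434, limma adjusted p = 3.253e-04), with the same bound since all dexa+IL4 values lay under 7.00 too. Its 95% confidence interval, 1.18- to 1.35-fold lower, reaches below that bound. The Marco change missed the threshold once arrays were scaled to their hybridization controls (limma adjusted p = 0.118, the highest of 20 alternatives, which otherwise gave 1.028e-04 to 0.00230). The Lyve1 change of -0.42 had a 95% confidence interval of -0.88 to 0.04 (limma adjusted p = 0.176), and it was -0.20 without cmB16F1 replicate 1. The Msr1 change of 0.12 had an interval of -0.05 to 0.29 (limma adjusted p = 0.277). The arrays of these groups did not overlap in any of the 5 receptors, nor in 44.3% of all clusters.

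**Figure D4:**
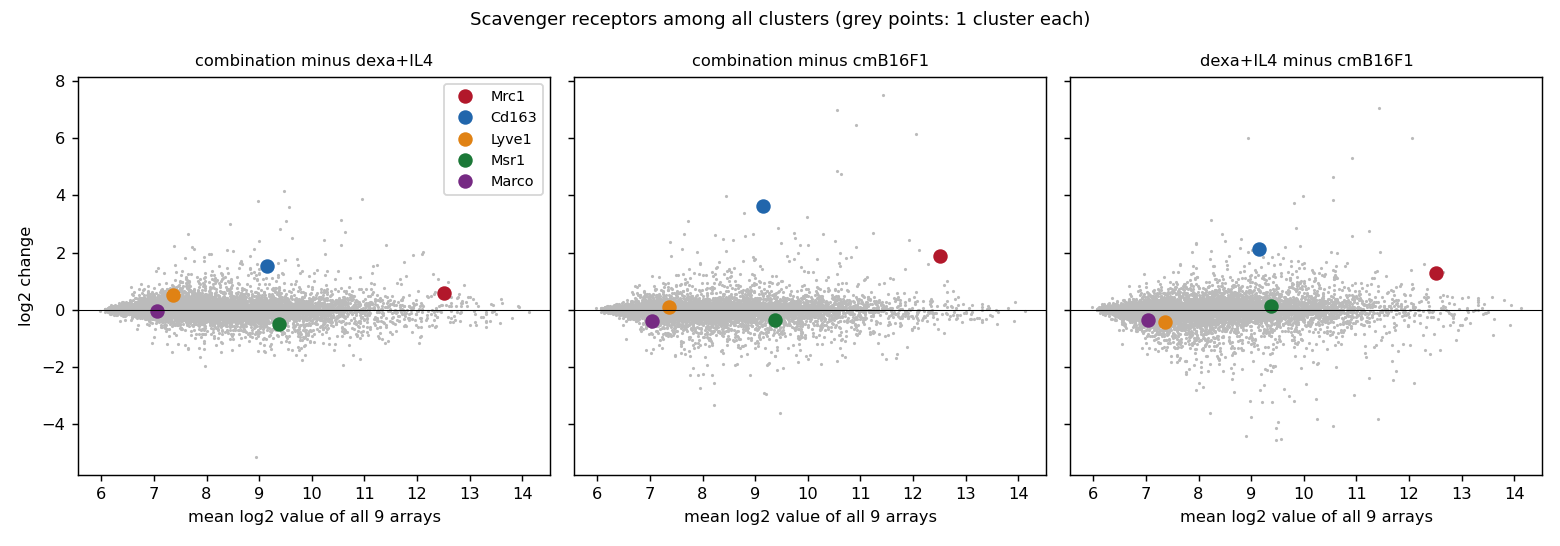
Log2 change against the mean log2 value of all 9 arrays for the 17810 clusters (grey) and the 5 receptors (coloured), in the 3 comparisons. Cd163 stands near the upper edge in each, as the 46th, 8th and 22nd largest rise. Lyve1, Msr1 and Marco changed less than Cd163 in each, with Lyve1 801st and Msr1 919th by size in the first.

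The order of the levels was therefore combination, dexa+IL4, cmB16F1 for Cd163, with every neighbouring pair separated by the test. For Mrc1 the order was the same, and the step between the combination and dexa+IL4 did not pass. For Lyve1 no step passed. For Msr1 the combination lay below both other groups, whose difference did not pass. For Marco cmB16F1 lay above both other groups, whose difference did not pass either.

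The receptors also differed in how much arrays of the same group varied. The pooled SD within groups was 0.329 for Mrc1 and 0.321 for Lyve1, larger than in 99.0% of 308 and 98.8% of 498 clusters of similar mean level. Cd163, at 0.171, exceeded 90.0% of its 498 neighbours. Msr1, at 0.0959, and Marco, at 0.0533, varied about as much as theirs, with median SDs of 0.0878 and 0.0538. In the conditioned medium groups the replicate 1 arrays were highest for Mrc1, Lyve1 and Cd163, and in dexa+IL4 this held only for Mrc1.

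Across the 9 arrays, which fall into 3 groups, Pearson correlations were taken as a description of likeness between profiles. Mrc1 and Cd163 correlated at 0.952, Mrc1 and Marco at -0.908, and Cd163 and Marco at -0.921, where 6 of the 9 Marco values lay under the highest bacterial control. Lyve1 correlated at 0.211 with Mrc1 and 0.109 with Cd163, and Msr1 at -0.495 with Mrc1 and -0.586 with Cd163. Among 500 other clusters with a mean above the bacterial controls and group means that span at least 1, 6 were more like Mrc1 than Cd163 was, and 34 were more like Cd163 than Mrc1 was. The most like Mrc1 was Mm.393014 (r = 0.971), at 10.55 ± 0.36 (SD, n = 3) in the combination, 9.88 ± 0.17 in dexa+IL4 and 8.78 ± 0.36 in cmB16F1. The most like Cd163 was Mm.251115 (r = 0.995), at 8.58 ± 0.09, 8.11 ± 0.02 and 7.35 ± 0.03. Neither cluster is named in the sources used here.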

How the data were processed

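Gene expression was measured on 1-colour Affymetrix arrays, 1 per sample, in 9 samples of cultured mouse macrophages, 3 in each of 3 groups taken from the titles in the labels. The deposited table holds log2 values per probe set, already normalized by the authors. That the scale is log2 was inferred from the range of the values. How they were normalized and summarised, and with which chip definition, is not given in the sources used here. Array medians lay between 7.19 and 7.25. Of 17931 probe sets, 64 were control sets. Where a cluster had a plus and a minus set (57 clusters, none of them a receptor), the brighter was used.

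Group differences came from limma 3.58.1 under R 4.3.3 (lmFit, eBayes with a mean-variance trend) on all 9 arrays with group as the only term. Benjamini-Hochberg adjustment ran over 17829 features, the 17810 clusters and 19 mouse control sets, with a threshold of 0.05 and no filter on dim sets. The labels do not say whether the arrays of a group come from separate animals or cultures, so p-values measure only the spread between these arrays, and their number limits the precision. On simulated data for the 17829 features, 96.0% of changes of 0.5 and 98.0% of changes of 1 were recovered between the combination and dexa+IL4, with 7 false calls, and 99.0% and 98.0% between the combination and cmB16F1, with 6. The changes were placed in the combination alone, so none was simulated between dexa+IL4 and cmB16F1, where 0 clusters were called. The noise was drawn independently for each array, with the spread that limma estimated for each feature and the same in all groups. Changed clusters were picked at random, so the shares need not hold for receptors with a wide spread, such as Mrc1 and Lyve1.

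Array numbers 1 to 3 recur in every group's labels. Deviations of equal-numbered arrays from their group means correlated across clusters at 0.617, 0.565 and 0.662 between the combination and cmB16F1, all above the limit of 0.1, so these groups were taken as paired. They were not between the combination and dexa+IL4 (0.224, -0.0672 and 0.116) or between dexa+IL4 and cmB16F1 (0.236, -0.0234 and 0.167).

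The receptors, motifs and tests were chosen with earlier results of these data known. All receptors were named, and the most like cluster was given for Mrc1 and Cd163. Lists of other scavenger receptors and of cell type markers were not run, since no table used here names the clusters. The alternatives were quantile normalization, median centring, scaling to 18 hybridization control sets, eBayes without trend or robust, array weights, only the groups compared, the replicate number as a block, a filter on dim sets, the dimmer of plus and minus sets, and leaving out each array.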

Additional observations from a re-analysis of the deposited data

How the results depend on the processing

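Each of the 15 receptor changes was recomputed under 20 alternatives. In 9 of the 15 every alternative kept the direction and the side of the threshold: all 3 of Cd163, all 3 of Msr1, Mrc1 in both comparisons with cmB16F1, and Marco between the combination and cmB16F1. Over all alternatives Cd163 ran from 1.27 to 1.65 between the combination and dexa+IL4 and from 3.43 to 3.76 between the combination and cmB16F1. Between dexa+IL4 and cmB16F1 it ran from 2.07 to 2.20.

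Scaling to the hybridization controls, which an earlier analysis of these data chose after seeing them, shifted the median of all clusters by -0.26 between the combination and dexa+IL4, and the changes of the receptors with it. Between the combination and cmB16F1 the median went from 0.013 to -0.20, and 11.7% of called clusters were higher, against 46.4% as deposited. In the first comparison it called 7104 clusters, of which 5.34% were higher, against 3184 and 49.7% as deposited, and 4 receptors, with Mrc1 at 0.34 (limma adjusted p = 0.0293) and Marco at -0.30 (0.0428) now past the threshold. Lyve1 between the combination and cmB16F1 turned to -0.10. Between dexa+IL4 and cmB16F1 the scaling called 1893 clusters, against 4454 as deposited. Marco at -0.30 missed the threshold (0.118) and Lyve1 at -0.38 passed (0.0315). Mrc1 and Lyve1 passed with smaller changes than as deposited, while the limma adjusted p of Cd163 was 1.591e-115 to 1.072e-15. The cause was not tested.

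With the replicate number as a block, Mrc1 at 0.60 (limma adjusted p = 0.0251) and Lyve1 at 0.53 (0.0135) passed between the combination and dexa+IL4, which gave 4 receptors. The same 4 were called with the block over only those 6 arrays (0.00184 for Mrc1, 0.0228 for Lyve1). Lyve1 at -0.42 (0.0298) passed between dexa+IL4 and cmB16F1 with the block over all arrays. These groups are not taken as paired, and between the combination and cmB16F1, which are, the block changed no receptor call. It raised the number of clusters called there from 2516 to 3052, and to 3677 with the block over only the arrays of the combination and cmB16F1. With only the 2 groups compared Mrc1 passed at 0.60 (0.00218).

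Leaving out 1 array at a time gave 2 to 4 receptors and 2044 to 3356 clusters between the combination and dexa+IL4, the lowest without dexa+IL4 replicate 1, with 2096 without its replicate 3. Mrc1 ran from 0.50 to 0.67, Lyve1 from 0.32 to 0.69 and Marco from -0.07173 to 0.00098188. Between the combination and cmB16F1 Lyve1 ran from -0.10 to 0.33. Where 2 arrays remained in a group, the model took their spread from all groups. Signal near the bacterial controls limits Marco in the combination and dexa+IL4, Lyve1 in dexa+IL4 and Cd163 in cmB16F1.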
